A study of Mus musculus with 9 samples.

Results

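The 10 genes described here mark macrophages and monocytes in mouse tissue, and they were taken by name from a table of 55401 genes: Cd14, Adgre1, Csf1r, Cd68, Cd163, Mrc1, C1qa, Lyz2, Arg1 and Trem1. All 10 had 1 entry each. A total of 8 passed the filter of a mean of at least 1 FPKM (fragments per kilobase, scaled by depth) over the 9 libraries and were tested with 14506 genes in all, and Cd163 and Trem1 did not pass it. The libraries came from colonic tissue of wild-type mice, 3 each from a berberine group, a high-fat diet group with AOM/DSS and a chow group with AOM/DSS. Berberine is a plant alkaloid, and AOM/DSS is the usual short form of the carcinogen azoxymethane followed by the irritant dextran sulfate sodium, given to raise tumours in an inflamed colon. The labels do not give the diet of the berberine mice, whether these mice received AOM/DSS, the age or sex of any animal, or whether each library is a separate animal, so p-values measure only the spread between these libraries.

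The wall of the gut holds a large pool of macrophages. Blood monocytes enter it, and under the growth factor CSF1 and its receptor CSF1R they mature into resident macrophages that clear dying cells and bacteria with little inflammation. In an inflamed or tumour-bearing colon, newly arrived monocytes instead respond to bacterial products through CD14 and its partners and can turn on enzymes such as arginase 1, which takes arginine away from other cells. In a bulk tissue library a lower value can mean fewer macrophages or less of the RNA in each, and these cannot be told apart.

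Library totals ran from 51961764 to 69007117 estimated counts. Summed levels of 10 epithelial genes were 11900 to 14200 CPM (counts scaled to a common library total) in berberine, 9120 to 12000 CPM in high-fat diet and 13200 to 13800 CPM in chow. Among the chow libraries, replicate 3 held 1550 CPM of striated muscle genes, against at most 54.1 CPM in any other library. Replicate 1 held 350 CPM of squamous epithelial genes, against at most 174 CPM elsewhere. Berberine replicates 1 and 2 held 892 and 732 CPM of adipocyte genes, against at most 172 CPM elsewhere.

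Csf1r, Adgre1, Cd68, C1qa and Mrc1, which mark macrophages in general, passed the test in none of the 3 comparisons, while Cd14, Arg1 and Lyz2 did in at least 1. In high-fat diet colon, Cd14 was 2.78-fold and Arg1 13.3-fold higher than in chow colon. In berberine colon, Arg1 was 103-fold lower than in high-fat diet colon, Cd14 was 1.53-fold lower and Lyz2 was 2.16-fold higher. By edgeR, 2 of the 8 tested members changed between high-fat diet and chow, where 31.8% of all tested genes did, and 3 of 8 between berberine and high-fat diet, where 30.7% did. These shares of members lie near those of all genes. The CPM ranges of the groups did not overlap for 3 of 8 members between high-fat diet and chow, beside 45.7% of all tested genes, and for 5 of 8 between berberine and high-fat diet, beside 50.4%. Between berberine and chow 0 of 8 changed by edgeR, where 0.0483% of all genes did. The median fitted log2 fold change of the members was 0.44 for high-fat diet over chow, -0.14 for berberine over high-fat diet and 0.46 for berberine over chow, beside medians of 0.002, -0.007 and -0.002 over all tested genes.

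**Figure D1:**
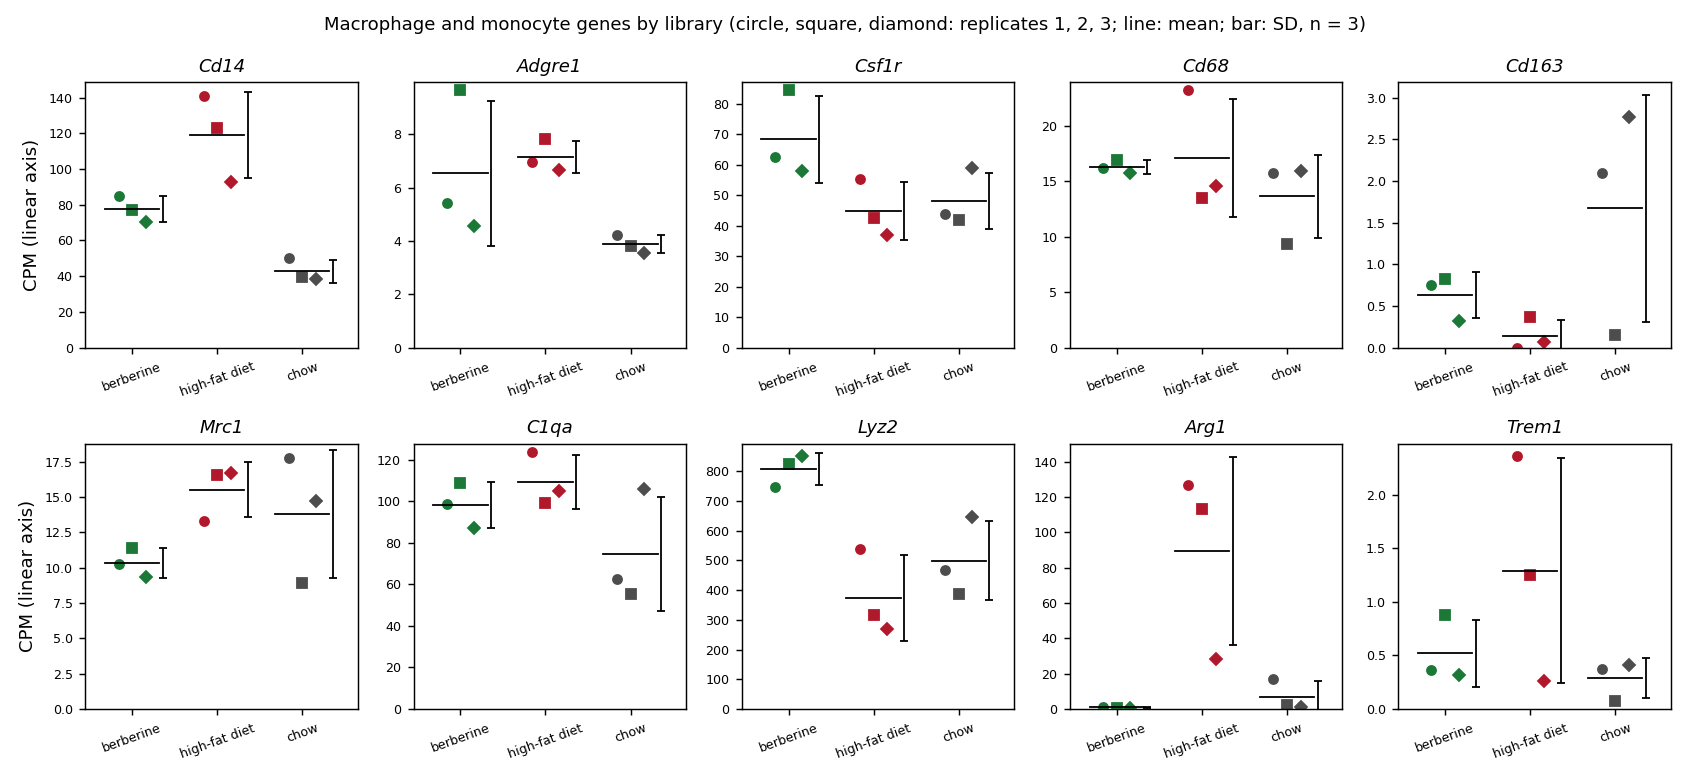
Level of each of the 10 genes in each of the 9 libraries, in CPM on a linear axis, with the mean as a line and the SD as a bar to its right (n = 3, bars end at 0 where the SD exceeds the mean). Arg1 and Cd14 stand highest in the high-fat diet libraries, Lyz2 in the berberine libraries, and Csf1r and Cd68 overlap between high-fat diet and chow.

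Levels per length set Lyz2 far above the other members in every group. Its mean was 533 ± 25.0 FPKM in berberine, 266 ± 106 FPKM in high-fat diet and 327 ± 95.5 FPKM in chow colon (SD, n = 3). C1qa came next, with means of 82.4 ± 10.6, 98.0 ± 12.3 and 61.7 ± 24.0 FPKM in the same groups, and Cd14 followed, with 39.0 ± 4.73, 64.1 ± 14.2 and 21.1 ± 3.73 FPKM. Cd68 and Csf1r were lower, at 11.3 ± 0.645 and 10.3 ± 2.27 FPKM in berberine, 12.7 ± 4.04 and 7.25 ± 1.64 FPKM in high-fat diet, and 9.36 ± 2.91 and 7.15 ± 1.57 FPKM in chow, so that these neighbours lay within their spread of each other in berberine and chow. Arg1 changed its place most. It was the eighth highest in berberine colon at 0.330 ± 0.123 FPKM, the fourth under high-fat diet at 37.8 ± 22.9 FPKM and the sixth in chow colon at 2.63 ± 3.58 FPKM. Adgre1 and Mrc1 had mean levels of 1.02 to 2.26 FPKM in all groups and lay within their spread of each other in berberine and high-fat diet. Trem1 and Cd163 were at or below 0.401 FPKM in every group mean.

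Csf1r, the receptor for CSF1 that macrophages need to survive (ENSMUSG00000024621, GRCm38 chromosome 18, 61100598 to 61131134, plus strand), was at 62.5, 84.6 and 57.8 CPM in the berberine libraries, 55.2, 42.6 and 36.8 CPM in the high-fat diet libraries and 43.7, 41.8 and 58.8 CPM in the chow libraries. The 3 berberine values lay above the 3 high-fat diet values, and both groups overlapped with chow. The fitted log2 fold change was -0.10 ± 0.22 (SE) for high-fat diet over chow, with a 95% interval from -0.59 to 0.39 (adjusted p = 0.759). For berberine over high-fat diet it was 0.61 ± 0.22, or 1.52-fold, which missed the threshold of 0.05 (adjusted p = 0.0639), and DESeq2 called it (adjusted p = 0.0359, with a range of 0.0359 to 0.205 over 20 alternative settings).

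Adgre1, the gene of the surface receptor F4/80 by which mouse macrophages are usually sorted (ENSMUSG00000004730, chromosome 17, 57358691 to 57483527, plus strand), had 5.41, 9.65 and 4.55 CPM in berberine, 6.96, 7.81 and 6.65 CPM in high-fat diet and 4.23, 3.83 and 3.56 CPM in chow libraries. All high-fat diet values and all berberine values were above all chow values. The log2 fold change for high-fat diet over chow was 0.88 ± 0.30, a 1.84-fold difference that just missed the threshold (adjusted p = 0.0528). Of 20 alternative settings 7 called it, among them DESeq2 (adjusted p = 0.0203) and limma on log2(FPKM + 1) (adjusted p = 0.0414), and the adjusted p ran from 0.0203 to 0.321 over these settings. For berberine over chow it was 0.76 ± 0.30 (adjusted p = 0.416), with the highest value in berberine replicate 2.

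Cd68, a lysosomal membrane glycoprotein of phagocytes (ENSMUSG00000018774, chromosome 11, 69664213 to 69666153, minus strand), was at 16.2, 16.9 and 15.7 CPM in berberine, 23.2, 13.5 and 14.6 CPM in high-fat diet and 15.7, 9.32 and 15.9 CPM in chow libraries. The groups overlapped, with 1 high value in high-fat diet replicate 1 and 1 low value in chow replicate 2. Its log2 fold change was 0.33 ± 0.27 for high-fat diet over chow (95% interval -0.29 to 0.94, adjusted p = 0.395). For berberine over high-fat diet it was -0.07 ± 0.27 (95% interval -0.69 to 0.54, adjusted p = 0.864).

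C1qa encodes a chain of complement C1q, which tags dying cells and microbes and is made mainly by macrophages (ENSMUSG00000036887, chromosome 4, 136895917 to 136898803, minus strand). It stood at 98.6, 109 and 87.3 CPM in berberine, 124, 99.4 and 105 CPM in high-fat diet and 62.8, 55.2 and 106 CPM in chow libraries. Chow replicate 3 lay with the other groups, and chow replicates 1 and 2 lay below them. The log2 fold change for high-fat diet over chow was 0.55 ± 0.24 (adjusted p = 0.106), and without chow replicate 3 it was 0.90 (adjusted p = 0.00541, the lowest of 20 alternative settings, which reached 0.275). The neighbouring gene C1qb, for the second chain of the same protein, was called higher in high-fat diet (57.2 ± 11 against 34.0 ± 9.67 CPM, log2 fold change 0.75 ± 0.23, adjusted p = 0.0393). That call was lost in 10 of 20 alternative settings, with adjusted p between 0.0514 and 0.126, among them the fits that left out chow replicate 1, chow replicate 2, or replicate 1 or 2 of the high-fat diet group. For C1qc, the third chain, the log2 fold change was 0.56 ± 0.19 (adjusted p = 0.0535).

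Mrc1, the mannose receptor CD206 of resident and alternatively activated macrophages (ENSMUSG00000026712, chromosome 2, 14229392 to 14332057, plus strand), had 10.3, 11.4 and 9.33 CPM in berberine, 13.3, 16.6 and 16.7 CPM in high-fat diet and 17.8, 8.92 and 14.7 CPM in chow libraries. The berberine values lay below all high-fat diet values and within the chow range. For berberine over high-fat diet the log2 fold change was -0.58 ± 0.26 (adjusted p = 0.12), and it passed the threshold without chow replicate 2 (adjusted p = 0.0425), without chow replicates 2 and 3 together (adjusted p = 0.0481) or in a fit of only these groups (adjusted p = 0.0493), with a range of 0.0425 to 0.254 over 20 alternative settings. Mrc1 is also made by lymphatic endothelium. Summed levels of 5 lymphatic genes were 128 to 161 CPM in berberine, 374 to 441 CPM in high-fat diet and 102 to 205 CPM in chow, and under high-fat diet 378 ± 25.7 CPM of that sum was Prox1, which tumour epithelium also makes. The lymphatic genes Lyve1 and Ccl21a went the other way, with Lyve1 at 9.09 to 12.4 CPM in berberine, 2.17 to 5.29 CPM in high-fat diet and 10.9 to 22.3 CPM in chow. Ccl21a was at 83.7 to 118 CPM in berberine, 11.6 to 16.6 CPM in high-fat diet and 64.5 to 161 CPM in chow. Their part in the Mrc1 values was not tested.

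Cd163, the scavenger receptor for haemoglobin bound to haptoglobin (ENSMUSG00000008845, chromosome 6, 124304656 to 124330527, plus strand), was too low for the filter. It had 39, 55 and 19 estimated counts in berberine, 0, 21 and 4 in high-fat diet and 128, 8 and 188 in chow libraries. About 4 of these counts stand for 1 sequenced fragment, so the high-fat diet libraries held a handful of fragments at most, and the 0 of replicate 1 allows up to 0.166 CPM. Chow replicates 1 and 3 were high, at 2.09 and 2.77 CPM, and chow replicate 2 was at 0.151 CPM. With the filter lowered to 0.1 FPKM, the log2 fold change for high-fat diet over chow was -3.52 ± 1.37 (adjusted p = 0.0965).

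Cd14 encodes the surface protein that hands bacterial endotoxin to the receptor TLR4 (ENSMUSG00000051439, chromosome 18, 36725067 to 36726798, minus strand). It was at 85.1, 77.1 and 70.3 CPM in berberine, 141, 123 and 93.0 CPM in high-fat diet and 49.9, 39.7 and 38.5 CPM in chow libraries. The groups did not overlap, with high-fat diet highest, berberine between and chow lowest. Cd14 rose under high-fat diet over chow by 1.48 ± 0.18 on the log2 scale (119 ± 24.0 against 42.7 ± 6.25 CPM, adjusted p = 0.000714), and that call held in all 20 alternative settings. Berberine over high-fat diet gave -0.62 ± 0.18 (77.5 ± 7.41 against 119 ± 24.0 CPM, adjusted p = 0.0291). This lower level lost its call when berberine replicate 2 (adjusted p = 0.0831) or 3 (adjusted p = 0.0957) was left out. The same held for replicate 1 (-0.46, adjusted p = 0.0992) or 2 (adjusted p = 0.076) of the high-fat diet group, and with no filter on low values (adjusted p = 0.0522).

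Cd14 is made by neutrophils and epithelium as well. Of 12 neutrophil genes 4 were tested. Of these 3 were higher under high-fat diet than under chow, beside 15.2% of all tested genes. In berberine 2 were lower than under high-fat diet, beside 14.9% of all tested genes. S100a8 and Csf3r passed the filter only through their high-fat diet values, so these counts cannot be weighed against the shares of all genes. Each of the 3 higher calls was lost in some of the fits that left out 1 library, with adjusted p up to 0.12 for S100a8, 0.225 for Csf3r and 0.273 for S100a9 over 20 alternative settings. S100a8, a calcium-binding protein of neutrophils and monocytes, was at 0.589 ± 0.322 CPM in berberine, 6.43 ± 4.38 CPM in high-fat diet and 0.780 ± 0.377 CPM in chow. S100a8 was 1.43 CPM in high-fat diet replicate 3, where Cd14 was 93.0 CPM. The summed level of the neutrophil list was 127 to 194 CPM in berberine, 76.9 to 158 CPM in high-fat diet and 59.5 to 156 CPM in chow, most of it from Ly6g, whereas Elane was at 0 in 8 libraries and Mpo was at most 0.471 CPM. The part of these cells in the Cd14 values was not tested.

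Trem1, a receptor that amplifies inflammatory signals in neutrophils and monocytes (ENSMUSG00000042265, chromosome 17, 48232768 to 48246924, plus strand), was also below the filter. It had 19, 59 and 19 estimated counts in berberine, 170, 73 and 16 in high-fat diet and 23, 4 and 28 in chow libraries. High-fat diet replicates 1 and 2 were the highest of the 9, and replicate 3 was within the range of the other groups. With the lower filter the log2 fold change for high-fat diet over chow was 2.20 ± 0.91 (adjusted p = 0.114), and for berberine over high-fat diet -1.34 ± 0.88 (adjusted p = 0.312).

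**Figure D2:**
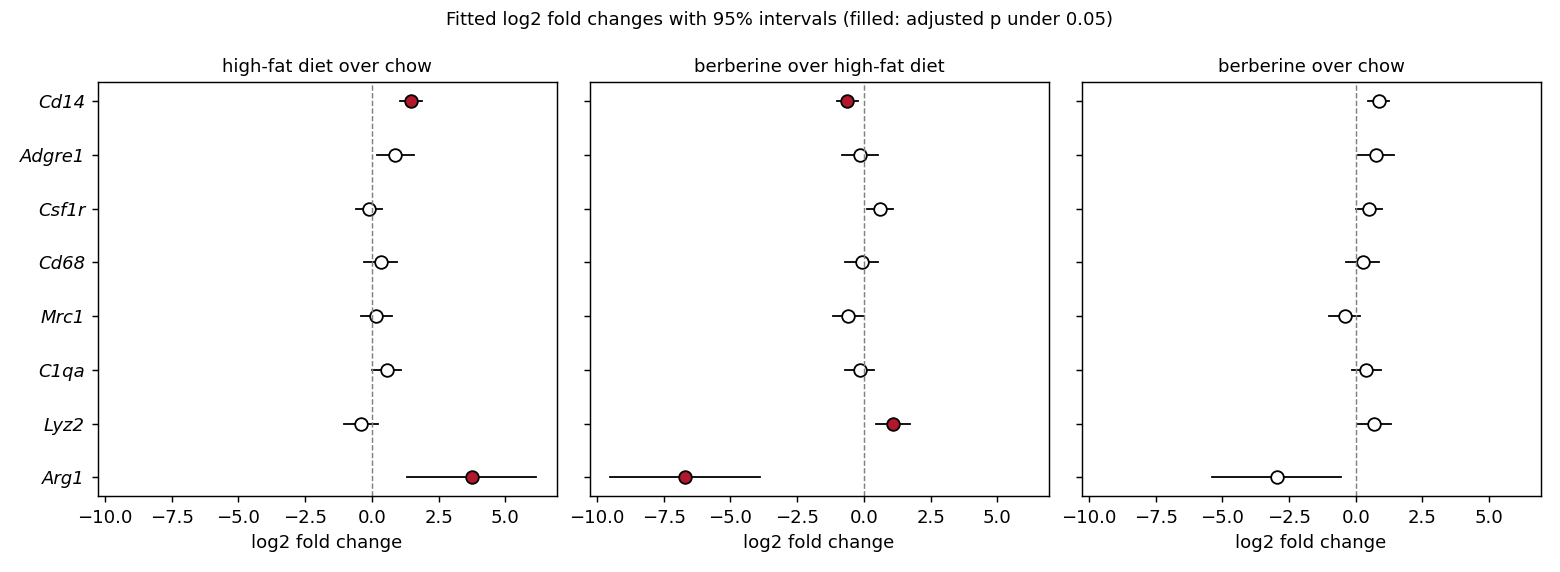
Fitted log2 fold changes of the 8 tested members (points) with 95% intervals (lines) for high-fat diet over chow, berberine over high-fat diet and berberine over chow, with genes down the page and filled points for adjusted p under 0.05. Filled points are Cd14 (1.48) and Arg1 (3.74) in the first panel and Cd14 (-0.62), Lyz2 (1.11) and Arg1 (-6.69) in the second, with none in the third.

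Lyz2 encodes the lysozyme of macrophages and neutrophils, an enzyme that cuts bacterial cell walls, and its neighbour Lyz1 the lysozyme of Paneth cells, secretory cells of the small intestine. The pair is shown because these near copies moved in opposite directions between berberine and high-fat diet, where Lyz2 rose and Lyz1 fell. The 71 bases that end 49 bases before each RefSeq start site, on the minus strand of chromosome 10 in the GRCm38.p6 build, are 87.3% identical base by base, with capitals at the 9 bases that differ. The RefSeq start of Lyz2 lies inside the gene as the deposited table draws it, and the stretch shown ends right before that gene's outer end.
Lyz2, chr10:117282322-117282392: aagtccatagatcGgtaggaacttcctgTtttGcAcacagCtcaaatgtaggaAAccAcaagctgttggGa
Lyz1, chr10:117292918-117292988: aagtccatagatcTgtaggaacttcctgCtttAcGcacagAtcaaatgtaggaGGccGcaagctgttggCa
Of the Lyz2 transcript, 1.97% of the 100-base stretches and 32.8% of the 31-base stretches also occur in the Lyz1 transcript. How the authors' counting shared reads between the copies is not given in the sources used here.

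Lyz2 (ENSMUSG00000069516, chromosome 10, 117277331 to 117282321, minus strand) was at 746, 825 and 850 CPM in berberine, 540, 315 and 268 CPM in high-fat diet and 468, 386 and 645 CPM in chow libraries. All berberine values were above all others, and high-fat diet overlapped with chow. Lyz2 rose in berberine over high-fat diet by 1.11 ± 0.28 on the log2 scale (807 ± 54.6 against 374 ± 145 CPM, adjusted p = 0.0187). The call was lost without berberine replicate 2 (adjusted p = 0.0539) or 3 (adjusted p = 0.0584), and without replicate 2 (adjusted p = 0.0628) or 3 (adjusted p = 0.0569) of the high-fat diet group, with a log2 fold change of at least 0.90 each time. High-fat diet over chow gave -0.42 ± 0.28 (adjusted p = 0.292), which passed the threshold once replicate 1 of the high-fat diet group was left out (-0.78, adjusted p = 0.0435) and in no other of 20 alternative settings.

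Lyz1 ran the other way, with 55.1, 53.9 and 68.8 CPM in berberine, 68.4, 192 and 241 CPM in high-fat diet and 48.2, 29.9 and 67.1 CPM in chow libraries. High-fat diet replicate 1 lay close to the other groups and replicates 2 and 3 far above them. Its log2 fold change was 1.79 ± 0.45 for high-fat diet over chow (adjusted p = 0.0166) and -1.49 ± 0.44 for berberine over high-fat diet (adjusted p = 0.0334). The first gave adjusted p = 0.0504 without chow replicate 1 and adjusted p = 0.12 without chow replicates 2 and 3 together, and the second lost its call without any 1 of the berberine libraries and without replicate 2 or 3 of the high-fat diet group, with adjusted p between 0.0683 and 0.103. The ratio of Lyz1 to Lyz2 FPKM was 0.0681 to 0.0843 in berberine, 0.132 to 0.939 in high-fat diet and 0.0806 to 0.108 in chow. Defa24, a Paneth cell defensin, was at 35.9, 74.1 and 84.4 CPM in high-fat diet and at most 0.0596 CPM in all other libraries. The list of 7 Paneth cell genes includes Lyz1 itself. It summed to 56.3 to 74.8 CPM in berberine and 503 to 836 CPM in high-fat diet. In chow replicates 1, 2 and 3 the sum was 55.3, 343 and 68.0 CPM. Lyz1 made up most of the sum in berberine and in chow replicates 1 and 3. In berberine Mmp7, Itln1 and Ang4 were at most 1.44, 2.24 and 2.74 CPM. In chow replicate 2, where Lyz1 was lowest, Itln1 and Ang4 of that list were at 203 and 101 CPM, above all high-fat diet values.

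Arg1, arginase 1, splits arginine into ornithine and urea and marks alternatively activated and tumour macrophages (ENSMUSG00000019987, chromosome 10, 24915221 to 24927484, minus strand). It was at 1.20, 0.596 and 0.807 CPM in berberine, 127, 113 and 28.3 CPM in high-fat diet and 17.1, 2.17 and 0.915 CPM in chow libraries. High-fat diet values lay above all others, and chow spread over more than 10-fold, with replicate 1 highest. Arg1 rose under high-fat diet over chow by 3.74 ± 1.06 on the log2 scale (89.4 ± 53.5 against 6.71 ± 8.98 CPM, adjusted p = 0.0269). The log2 fold change was 5.87 without chow replicate 1 (adjusted p = 0.00377), 4.37 with the replicate block (adjusted p = 0.0104) and 4.18 when replicate 3 of the high-fat diet group was left out (adjusted p = 0.0228). The call was lost when replicate 1 (adjusted p = 0.0651) or 2 (adjusted p = 0.0624) of the high-fat diet group was left out, without chow replicate 2 (adjusted p = 0.0705), without chow replicates 2 and 3 together (2.40, adjusted p = 0.121), and in a fit of only these groups (adjusted p = 0.063).

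Arg1 fell in berberine over high-fat diet by 6.69 ± 1.23 on the log2 scale (0.868 ± 0.307 against 89.4 ± 53.5 CPM, adjusted p = 0.00468). This call held in all 20 alternative settings, with adjusted p of at most 0.0253. Berberine over chow gave -2.96 ± 1.06 (adjusted p = 0.389), and -0.83 without chow replicate 1. The mitochondrial form Arg2 was at 7.09, 12.6 and 13.9 CPM in berberine, 9, 10.3 and 8.50 CPM in high-fat diet and 8.87, 30.4 and 2.49 CPM in chow libraries. Arg2 thus overlapped between all groups, and the ratio of Arg1 to Arg2 FPKM was 0.0296 to 0.106 in berberine, 2.13 to 9.08 in high-fat diet and 0.0454 to 1.23 in chow.

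The genes nearest to Arg1 over the 9 libraries, chosen after its values were seen, were Cxcl5, a neutrophil chemokine, Prss22, a secreted protease, and Dsg3, a desmosome protein of squamous epithelium. Their log2 profiles differed from that of Arg1 by 0.36, 0.48 and 0.78 (root mean square after centring each gene). Among macrophage members the nearest to Arg1 was Cd14, at 2.11. This measure grows with the size of a gene's changes, so it does not compare shape alone. The SD of log2 level over the 9 libraries was 2.62 for Arg1 and 0.66 for Cd14. Dsg3 was at 0.446, 0.194 and 0.231 CPM in berberine, 15.9, 37.5 and 12.4 CPM in high-fat diet and 5.90, 1.26 and 0.458 CPM in chow, so that chow replicate 1 was highest of its group for Dsg3 and for Arg1.

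Squamous epithelial genes as a list, added after values were seen, summed to 11.9 to 27.4 CPM in berberine, 80.3 to 174 CPM in high-fat diet and 350, 10.4 and 20.4 CPM in chow replicates 1, 2 and 3. Of its 12 members 8 were tested, 1 of them was higher under high-fat diet than under chow, and 1 was lower in berberine than under high-fat diet, which was Dsg3 both times. Dsg3 was under 1 FPKM in every berberine and chow library and passed the filter only through high-fat diet. It was also picked above for nearness to Arg1, so its calls are not separate evidence. The basal keratin gene Krt14 was at 94.9, 76.6 and 27.9 CPM in high-fat diet and 76.1, 0.396 and 2.08 CPM in chow libraries, high where Arg1 was high. Krt13, a keratin of upper squamous layers, was at 31.6, 34.3 and 12.3 CPM in high-fat diet and 70.9, 0.981 and 0.723 CPM in chow. The basal markers Krt5 and Trp63 were high in chow replicate 1, at 94.4 and 3.76 CPM, and at most 1.48 and 0.223 CPM in high-fat diet. In berberine Krt14 was at most 6.57 CPM and Krt5 at most 0.794 CPM. The part of squamous epithelium and of other cells in the Arg1 values was not tested.

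**Figure D3:**
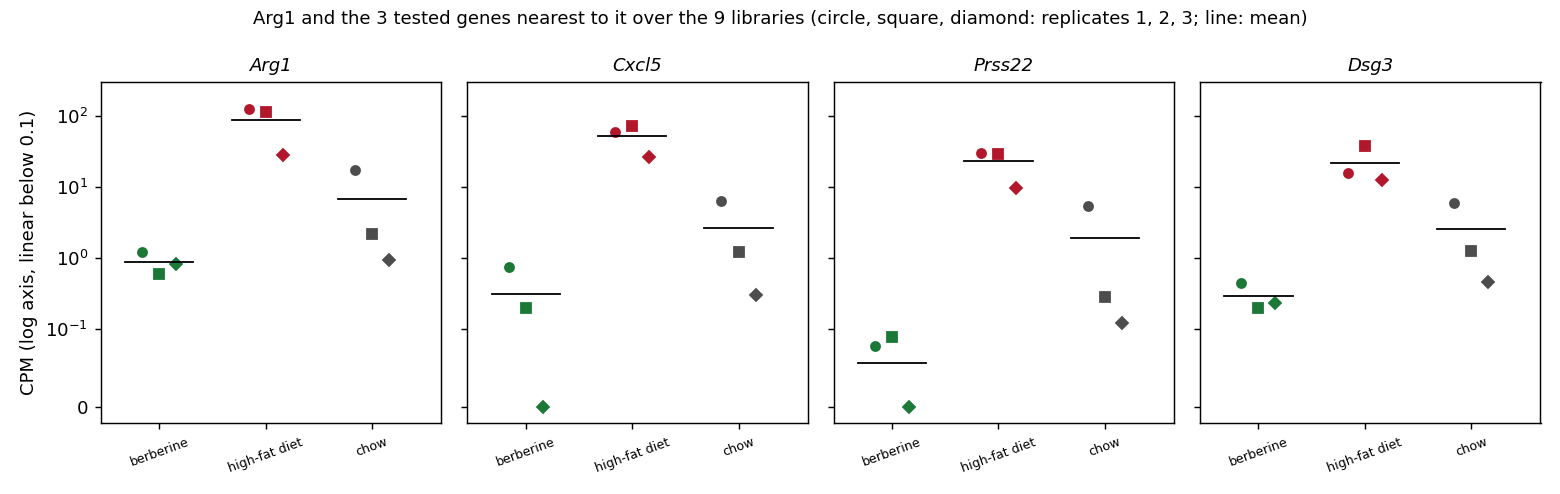
Arg1 and the 3 tested genes nearest to it, in CPM on an axis that is logarithmic above 0.1 and linear below, for each of the 9 libraries with the group mean as a line. In all 4 genes the high-fat diet libraries lie highest, chow replicate 1 is the highest chow library and the berberine libraries lie at 1.20 CPM or below.

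Set against Csf1r in the same library, which gives a level per unit of a general macrophage gene, the members differed. The FPKM of Cd14 was 4.54, 3.04 and 4.06 times that of Csf1r in berberine, 8.49, 9.60 and 8.44 times in high-fat diet and 3.81, 3.17 and 2.18 times in chow libraries. C1qa was 7.16 to 8.76 times Csf1r in berberine, 12.5 to 15.8 times in high-fat diet and 7.34 to 9.98 times in chow. Adgre1 was 0.140 to 0.203 times Csf1r in berberine, 0.225 to 0.327 times in high-fat diet and 0.107 to 0.172 times in chow. For these 3 ratios every high-fat diet library lay above every other library. Csf1r itself was lower in every high-fat diet library than in every berberine library, and C1qa and Adgre1 levels in CPM overlapped between these groups. The ratio of Cd68 was 0.919 to 1.25 in berberine, 1.46 to 1.93 in high-fat diet and 1.02 to 1.65 in chow. That of Mrc1 was 0.122 to 0.149, 0.218 to 0.411 and 0.193 to 0.369. Both overlapped between high-fat diet and chow. How often other genes separate in this way was not computed. Lyz2 was 42.8 to 64.6 times Csf1r in berberine, 31.9 to 42.9 times in high-fat diet and 40.5 to 48.1 times in chow, with overlap between groups. With 3 libraries against 3 an exact two-sided permutation test cannot give a p below 0.1, and these ratios were not tested.

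**Figure D4:**
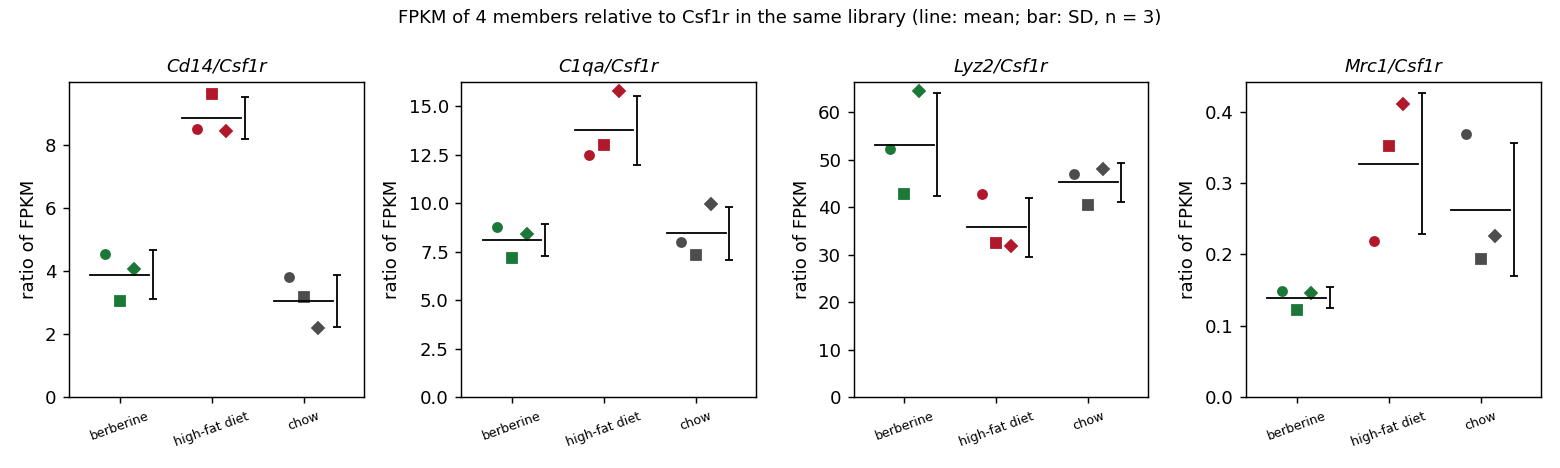
FPKM of Cd14, C1qa, Lyz2 and Mrc1 divided by the FPKM of Csf1r in the same library, with group means as lines and SD as bars (n = 3). The Cd14 ratio is 8.44 or more in the high-fat diet libraries and 4.54 or less in all others.

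Among themselves, Arg1 lay at 2.11 or more from all other tested members, a distance that its larger spread, given below, sets in large part. C1qa, Cd68, Csf1r and Adgre1 had centred log2 profiles that differed by 0.25 to 0.45, the closest being C1qa and Cd68. Mrc1 was 0.39 to 0.57 from these. Cd14 was nearest to Adgre1, at 0.39, and Lyz2 to Csf1r, at 0.30, while Lyz2 and Cd14 lay 0.91 apart. The standard deviation of log2 level over the 9 libraries was 0.32 to 0.42 for Cd68, Mrc1, Csf1r, C1qa and Adgre1, 0.61 for Lyz2, 0.66 for Cd14 and 2.62 for Arg1. Over all tested genes, the nearest to Cd14 were Phgdh, the first enzyme of serine synthesis, Sh3bp2, a signalling adaptor, and Rnf122, at 0.18, 0.19 and 0.20. The nearest to Adgre1 were Sh3kbp1, Tmem79 and Gm42528, at 0.14, 0.18 and 0.19. The nearest to C1qa were the chemokine gene Ccl17, Mapk7 and C1qc, at 0.10, 0.11 and 0.11, and Ccl17 was at most 1.11 CPM in any library, where the added 1 CPM flattens its profile.

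The wider pathways of these genes were then read for high-fat diet against chow, where 35 genes of 11 macrophage lists were called and 25 of them kept the call in all 9 fits that left out 1 library. Over all tested genes 31.8% were called in this comparison, and the count of each list below stands beside that share. Of 19 genes of resident and scavenger macrophages 14 were tested, 4 were higher and 5 lower, beside 15.2% higher and 16.6% lower over all genes. Mertk, a receptor for dying cells, fell to 6.49 ± 1.09 CPM in high-fat diet, against 31.7 ± 10 CPM in chow (log2 fold change -2.29 ± 0.28, adjusted p = 0.000794). Maf, a transcription factor of resident macrophages, fell by 1.16 ± 0.23 on the log2 scale and Timd4, another receptor for dying cells, by 1.61 ± 0.33. Lyve1, counted above as a lymphatic gene, is in this list too and was another of the lower genes. In the other direction, Fcgr1, the antibody receptor CD64, was at 4.93, 5.03 and 4.12 CPM in high-fat diet and 1.5, 1.47 and 2.36 CPM in chow (log2 fold change 1.40 ± 0.34), and the scavenger receptor gene Msr1 rose by 1 ± 0.25 and the antibody receptor gene Fcgr3 by 0.83 ± 0.23. These 3 and C1qb were the 4 higher genes, and each lost its call in at least 1 fit that left out a single library. Fcgr1 did so without chow replicate 1 or 2, Msr1 without replicate 1 of the high-fat diet group, and Fcgr3 without any 1 of the chow libraries or replicate 1 or 2 of the high-fat diet group. Mertk and Maf are made by other cells as well, and the T cell genes Cd3e and Cd4 were also lower in these libraries (-2.25 ± 0.42 and -1.52 ± 0.25). Their list of T and natural killer cell genes had 7 lower and 1 higher among 10 tested, beside the same shares over all genes. Its log2 fold changes ran from -2.81 to 3.86. Of 12 monocyte genes 6 were tested, 0 were higher and 2 lower by edgeR, among them Ace, an enzyme that colon epithelium also makes (13.2 ± 2.20 against 45.7 ± 10.1 CPM). Ly6c2, a surface protein that defines inflammatory blood monocytes, was at 7.18, 10.9 and 4.96 CPM in high-fat diet and 12.3, 9.47 and 11.7 CPM in chow. Ccr2, the receptor that draws monocytes out of the blood, was at 4.48 to 6.71 CPM in high-fat diet and 5.07 to 6.36 CPM in chow, so that both genes overlapped between these groups.

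Some genes that recruit or rouse macrophages were also higher in the high-fat diet libraries. Csf1, the ligand of the receptor, rose to 46.2 ± 2.99 CPM, against 26.4 ± 2.71 CPM in chow (log2 fold change 0.81 ± 0.13, adjusted p = 0.00284), the single call among 7 tested genes of its axis. Of 7 tested inflammatory genes 4 rose and 0 fell by edgeR, with a list median of 1.93, beside 15.2% higher and 16.6% lower over all tested genes. Il1a, 1 of these 4, was under 1 FPKM in every berberine and chow library and passed the filter only through high-fat diet. The filter left out Il6 and Il12b, which had log2 fold changes of 5.53 ± 1.46 and -2.67 ± 1.18 with the lower filter. Tnf, the cytokine TNF, was at 25.4, 21.5 and 20.2 CPM in high-fat diet and 5.70, 4.32 and 7.56 CPM in chow. Il1b, interleukin 1 beta, rose by 2.82 ± 0.61, or by 2.00 without high-fat diet replicate 1. Ccl7, a monocyte chemokine, was at 41.5, 22.9 and 9.13 CPM in high-fat diet and 1.04 to 1.70 CPM in chow, a log2 fold change of 4.26 ± 0.69, or 3.64 without high-fat diet replicate 1. Mast cell genes were higher as well: 8 of 9 tested were higher under high-fat diet than under chow, beside 15.2% of all tested genes. Among them Mcpt4, Cma2, Tpsab1, Tpsb2 and Cpa3 were under 1 FPKM in every berberine and chow library. These passed the filter only through the high-fat diet libraries, so the count cannot be weighed against that share. The mast cell list summed to 74.7 to 90.4 CPM in berberine and 66.5 to 135 CPM in chow. In high-fat diet replicates 1, 2 and 3 it summed to 5060, 1140 and 340 CPM. Ccl7 and Il1b, the second at 39.7, 17.8 and 6.68 CPM, ranked the high-fat diet libraries in the same order. Cd14, Arg1, Tnf and Csf1 did so too and Nos2 did not, so this order is not particular to Ccl7 and Il1b. How many of all genes share it was not computed. The part of mast cells in these values was not tested. Ccl5, a T cell chemokine, fell by 2.84 ± 0.41, and these were the calls among 8 tested chemokines.

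Around the members with a receptor role, the partners did not move as one. Of 11 tested genes of endotoxin sensing 1 rose and 3 fell, beside 15.2% higher and 16.6% lower over all tested genes. The rise was Lbp, the endotoxin carrier of serum (1.18 ± 0.38, lost in 10 of 20 alternative settings), and 1 of the falls was Ticam1, an adaptor of these receptors (-0.56 ± 0.16, lost in 12 of 20). Tlr6 fell by 0.86 ± 0.18, and Tlr4, the receptor that Cd14 serves, was at 14.5, 19.2 and 10.2 CPM in high-fat diet and 21.4, 22.6 and 13.5 CPM in chow, with overlap. Tlr1 fell by 1.06 ± 0.12 on the log2 scale. Pglyrp1, a peptidoglycan-binding protein that is a ligand of TREM1, was at 1600, 883 and 956 CPM in high-fat diet and 162, 219 and 181 CPM in chow (log2 fold change 2.61 ± 0.26, adjusted p = 0.000338). Treml2 fell by 3.22 ± 0.62, or by 2.57 without chow replicate 3, and the other 4 tested genes of the TREM list were not called. Trem2, a lipid receptor of tissue macrophages, was below the filter, at 1.03 to 1.88 CPM in berberine, 7.30, 5.15 and 8.52 CPM in high-fat diet and 0.924 to 2.60 CPM in chow. With the lower filter edgeR called it higher under high-fat diet than under chow (1.83 ± 0.45, adjusted p = 0.019) and lower in berberine than under high-fat diet (-2.37 ± 0.46, adjusted p = 0.00749).

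Lysosome, arginine and iron genes were split, and their counts stand beside 15.2% higher and 16.6% lower over all tested genes. Of 11 lysosomal genes 3 rose and 2 fell: Lamp2 rose by 2.03 ± 0.17 on the log2 scale, while Ctss, a protease that processes antigen, fell by 0.99 ± 0.17 and Gpnmb by 2.18 ± 0.40. Of 7 tested genes of haem and iron handling 3 rose and 1 fell. Slc40a1, the iron exporter ferroportin, was at 66.2, 54.8 and 47.1 CPM in high-fat diet and 196, 174 and 217 CPM in chow. Blvrb, biliverdin reductase B, rose by 1.07 ± 0.15. Of 6 tested genes of alternative activation 0 rose and 2 fell by edgeR. They were Retnla, at 0.0538 ± 0.0494 against 3.31 ± 0.450 CPM, and Ccl22, at 4.39 ± 0.974 against 12.5 ± 5.26 CPM, whereas Arg1 rose in the same libraries. Retnla passed the filter only through chow and was below 3 fragments in every high-fat diet library, so the size of its fall is uncertain. In berberine it was also low, at 0.639, 0.402 and 0 CPM. In arginine handling, a list that leaves out Arg1, 1 of 6 tested genes rose. It was Nos2, the inducible nitric oxide synthase, also counted among the 4 inflammatory genes that rose (1.73 ± 0.50, adjusted p = 0.03). That call was lost without chow replicate 1 or 3, without replicate 1 or 2 of the high-fat diet group, and without chow replicates 2 and 3 together, with adjusted p between 0.0514 and 0.133.

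**Figure D5:**
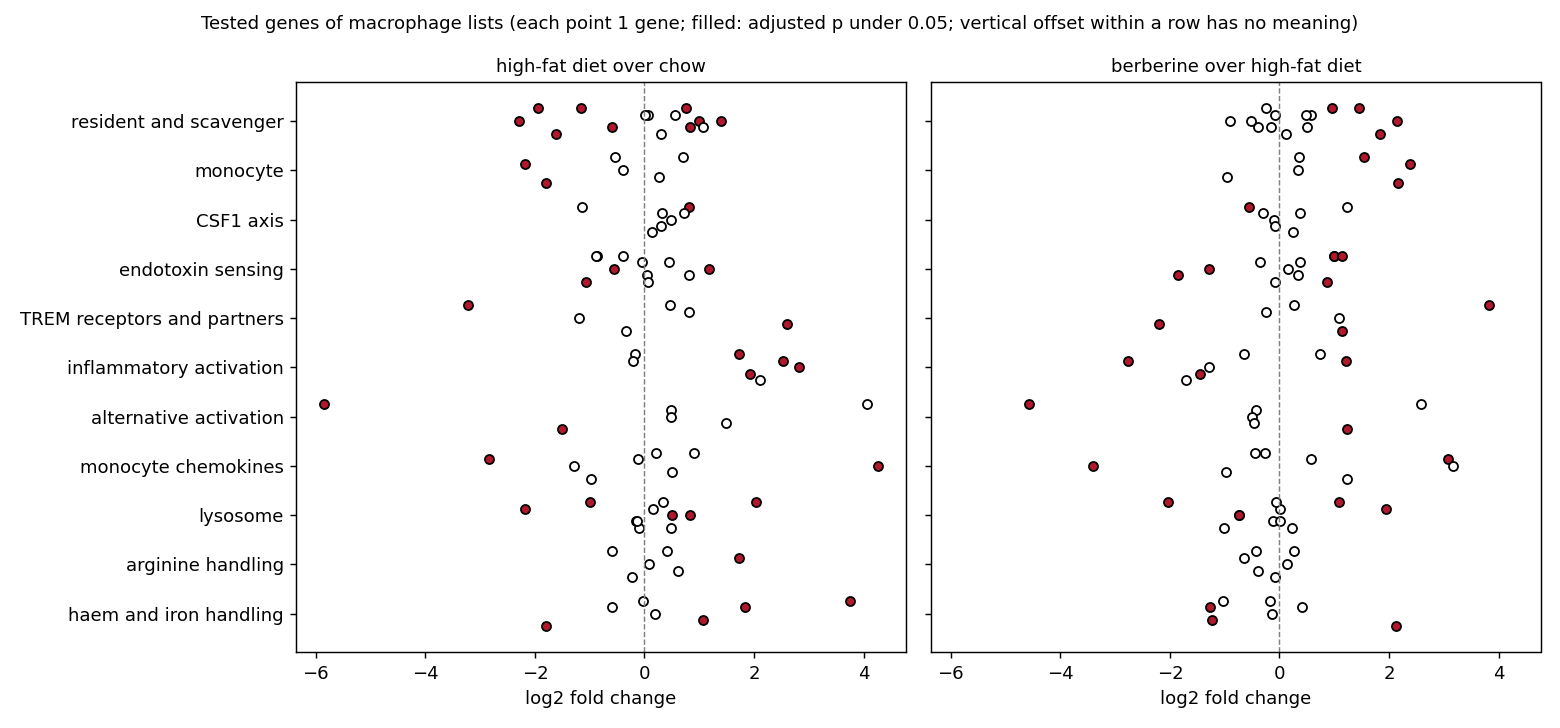
Log2 fold changes of the tested genes of 11 macrophage lists, with 1 point per gene and filled points for adjusted p under 0.05, for high-fat diet over chow and berberine over high-fat diet. Inflammatory genes have their 4 called values above 0 in the first panel, whereas resident and scavenger genes hold called values on both sides of 0.

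Berberine against high-fat diet was read in the same lists; it shares the high-fat diet libraries with the comparison above. Of 32 genes called in these lists 21 kept the call in all 9 fits that left out 1 library. Over all tested genes 30.7% were called in this comparison. Of the 14 resident and scavenger genes tested 4 were higher and 0 lower by edgeR, beside 15.8% higher and 14.9% lower over all genes. Lyve1, also in the lymphatic list, was 1 of the higher genes. Mertk was at 23.7, 36 and 26.3 CPM in berberine and 6.53, 7.56 and 5.38 CPM in high-fat diet, and Timd4 rose by 1.83 ± 0.33 and Maf by 0.96 ± 0.23 on the log2 scale. Of 6 tested monocyte genes 3 rose, among them Ly6c2 (22.5 ± 5.36 against 7.67 ± 2.99 CPM, adjusted p = 0.00647) and Ace (log2 fold change 2.17 ± 0.23). All 9 B cell genes tested also rose in berberine, beside 15.8% of all tested genes, and Ly6c2 is made by lymphocytes too. Their part was not tested.

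Of the 7 tested inflammatory genes 2 fell and 1 rose in berberine, beside 14.9% lower and 15.8% higher over all tested genes. Il1a, 1 of those that fell, passed the filter only through the high-fat diet libraries. The rise was Cd40, a costimulatory receptor (1.22 ± 0.38, adjusted p = 0.0394), which was lost in 12 of 20 alternative settings with adjusted p up to 0.123. Tnf fell to 8.19 ± 3.25 CPM, against 22.4 ± 2.70 CPM in high-fat diet (log2 fold change -1.45 ± 0.32, adjusted p = 0.0102), and Il1a by 2.77 ± 0.58, or by 2.04 without high-fat diet replicate 1. Ccl7 fell by 3.40 ± 0.66, or by 4.17 without berberine replicate 1 and 2.77 without high-fat diet replicate 1. Csf1 fell by 0.55 ± 0.13 (adjusted p = 0.0143), a call lost without berberine replicate 2 (adjusted p = 0.0553) or replicate 1 of the high-fat diet group (adjusted p = 0.0526). In endotoxin sensing 4 of 11 tested genes rose and 2 fell. Tlr1 rose by 0.87 ± 0.12 and Tlr6 by 1 ± 0.18. Tlr4 was at 32, 27.9 and 27.5 CPM in berberine, above all high-fat diet values (log2 fold change 0.99 ± 0.27, adjusted p = 0.0238), whereas Cd14 fell in the same comparison. The Tlr4 call was lost without any 1 of the berberine libraries and without replicate 1 or 3 of the high-fat diet group, with adjusted p between 0.0532 and 0.0676. Among the 6 tested genes of the TREM list, Treml2 rose to 13.4 ± 3.68 CPM in berberine, against 0.941 ± 0.398 CPM in high-fat diet, and Syk, a kinase that passes on signals of such receptors, rose by 1.14 ± 0.20. Pglyrp1 was at 213, 259 and 276 CPM in berberine, and fell by 2.20 ± 0.25 on the log2 scale. Slc40a1 rose by 2.13 ± 0.22, Ctss by 1.09 ± 0.17 and Gpnmb by 1.95 ± 0.40, while Lamp2 fell by 2.03 ± 0.17 and Blvrb by 1.24 ± 0.15. Ccl5 rose by 3.07 ± 0.41, the single rise among 8 tested chemokines. Of the 6 tested genes of the arginine list, which leaves out Arg1, 0 were called by edgeR, whereas Arg1 itself fell. In alternative activation 1 of 6 tested genes rose and 1 fell. The rise was Ccl22 (lost in 3 of 20 alternative settings) and the fall was Ccl24 (lost in 9 of 20). Ccl24 too passed the filter only through the high-fat diet libraries.

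Berberine against chow gave the fewest calls. By edgeR 0 of the 8 tested members were called and 5 had an unadjusted p under 0.05, and DESeq2 called 1 member, Cd14 (adjusted p = 0.00359), and limma 0. Over all genes edgeR called 7, with 1579 at an unadjusted p under 0.05, and DESeq2 called 384. Cd14 was at 77.5 ± 7.41 CPM in berberine and 42.7 ± 6.25 CPM in chow, a log2 fold change of 0.86 ± 0.18 with a 95% interval from 0.46 to 1.26 (adjusted p = 0.211), higher in 3 of 3 libraries. Lyz2 gave 0.69 ± 0.28 (adjusted p = 0.422). The 3 berberine libraries lay above the 3 chow libraries for Cd14, Adgre1 and Lyz2, as such non-overlap held for 18.1% of all tested genes. Of the 11 macrophage lists, none had a called gene in this comparison by edgeR.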

How the data were processed

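Stranded poly(A) RNA libraries with molecular identifiers were sequenced in 2 x 150 base pairs from colonic tissue, per the labels' protocols. Each gene has, per the file headers, 1 FPKM value and 1 estimated count per library. The submitters' processing notes name GRCm38, HISAT2 2.0.4, StringTie 1.3.4d, cutadapt 1.9, UMI-tools, edgeR and DESeq2, without their roles or filters. Deposited estimated counts are whole numbers, and 34.9% of those from 1 to 40 are multiples of 4, so 1 fragment appears to be worth about 4 counts. FPKM is listed at 0.0001 where the count is 0.

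Counts were tested with edgeR 4.0.16 (quasi-likelihood, TMM scaling, all 9 libraries) in R 4.3.3, over the 14506 genes whose mean reached 1 FPKM. Changed means a Benjamini-Hochberg adjusted p under 0.05 over these genes, and the same call is meant wherever a gene rose, fell or was called. The filter takes the mean of all 9 libraries, so a gene can pass through 1 group, as Fcgr1 and Lbp did through high-fat diet. The SE is the log2 fold change divided by the square root of its F statistic. CPM uses the TMM-scaled library sizes, 95% intervals of fold changes come from the fit and its SE, and floors (12 counts, or 3 fragments) cover counting error only. limma 3.58.1 and DESeq2 1.42.0 served as alternatives.

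All 10 members, and from each list the called genes with the smallest p, are named. C1qb, C1qc, Tlr4, Trem2, Arg2, Ly6c2, Ccr2 and genes of other cells were added as partners or defining markers. Members and lists were chosen with earlier results of these data known. Deviations of same-numbered libraries correlated weakly, which does not exclude a pairing.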

Additional observations from a re-analysis of the deposited data

How the results depend on the processing

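Across 20 alternatives and 24 values (8 members, 3 comparisons), 450 of 480 fitted fold changes kept their side of the threshold, 14 lost a call and 16 gained one, and no called one changed sign. For high-fat diet over chow 4613 genes changed, 3573 to 4325 without single libraries and 2001 without chow replicates 2 and 3 together, an alternative chosen after seeing the data. There were 2 members called, and 1 to 3 without single libraries. For berberine over high-fat diet 4460 genes changed, 2960 to 4740 without single libraries, the lowest without berberine replicate 2, and 3 members were called, 1 to 4 without single libraries. For berberine over chow 7 genes changed. Without single libraries the count was 1 to 7, with DESeq2 size factors, the 0.1 FPKM filter, counts divided by 4, only the groups compared or the replicate block it was 2, without chow replicates 2 and 3 it was 1, and DESeq2 called 384 genes and 1 member. The cause was not tested. Scaling by library totals alone moved the median log2 fold change of all genes from 0.002 to 0.128 (high-fat diet over chow) and from -0.007 to -0.116 (berberine over high-fat diet). It made 59.8% of changed genes higher in place of 47.7%, and 40.9% in place of 51.4%. The uncalled members Csf1r, Mrc1 (high-fat diet over chow), Cd68 and Adgre1 (berberine over high-fat diet) changed sign under some settings. With the replicate block, 4344 genes changed for high-fat diet over chow and 4286 for berberine over high-fat diet, with the same number of members called. Same-numbered libraries had deviations that correlated by -0.1 to 0.16, so no pairing by number was seen, though groups of 3 libraries cannot exclude one. Low depth limits Cd163 and Trem1, where 3 fragments are 0.166 to 0.233 CPM.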
